A study of Homo sapiens with 2 samples.

Results

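Enzymes that add or remove methyl groups on histones, or remove acetyl groups, were followed together with the partner subunits EED and SUZ12. The cells were H322c, an established non-small cell lung cancer (NSCLC) line, treated with the EGFR inhibitor gefitinib. The set held every gene whose symbol begins with KDM, KMT, SETD, HDAC or SIRT followed by a digit, together with EZH1, EZH2, EED, SUZ12, DOT1L, EHMT1, EHMT2, NSD1, NSD2 and NSD3. These were 67 of the 19775 genes on the array that had a probe set of their own, and they had 197 of the 41097 such probe sets. Of the 67 symbols, 63 encode proteins. The other 4 (HDAC2-AS2, HDAC4-AS1, KMT2E-AS1 and KDM7A-DT) are non-coding transcripts named after the enzyme gene beside them and are described apart.

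Histone tails carry small chemical marks that help to set how tightly DNA is packed and which genes are read. Lysine methyltransferases (KMT, SETD, NSD, EHMT, DOT1L, and EZH1 and EZH2 within the Polycomb complex PRC2) add methyl groups, and lysine demethylases (KDM) remove them. Histone deacetylases, which use zinc, and sirtuins, which use NAD, take off acetyl groups. Methylation of H3K4 and H3K36 is found at active genes, whereas methylation of H3K9 and H3K27 is linked to silencing. KDM5A, which removes methyl groups from H3K4, is known for a role in the reversible drug-tolerant state of cancer cell lines.

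The compared samples were H322c cells kept for 4 days in 1 µM gefitinib and H322c cells kept for 4 days in 0.1% DMSO, the vehicle. Both were plated 24 hrs before the addition and grown in serum-containing medium. Total RNA of each was hybridised to 1 Affymetrix U133 Plus 2.0 array, on which groups of short oligonucleotides, called probe sets, each read a transcript. There was 1 array per condition, so no test was possible and every difference describes these 2 arrays.

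Values are MAS5 signals on a linear scale, and signals under 100 were set to 100, a floor that 60.4% of probe sets with gefitinib and 61.6% with DMSO did not reach. A gene counted as measured if any of its probe sets had a signal of 100 or more on either array, and the probe set with the highest average of both log2 signals represented it. A difference was counted from 2-fold upwards. Where 1 of the 2 signals lay under the floor, the fold is a bound and is written "at least". The trimmed mean signal was 500 on both arrays, so that the values are relative to the bulk of the transcripts, and the median log2 ratio (gefitinib over DMSO) of all 11223 measured genes was 0.12. The spread available was that between probe sets of 1 gene, an SD of 0.58 in log2 ratio over all genes, which does not include the spread between cultures. EPCAM, CDH1 and the keratins KRT8, KRT18 and KRT19, which mark epithelial cells, had signals of at least 14038 on both arrays. The leukocyte markers PTPRC, CD3E and CD14 did not exceed 45.2 with gefitinib or 31.0 with DMSO. Of 4 fibroblast markers, COL1A1 reached 950.2 with gefitinib and 531 with DMSO, and COL3A1, PDGFRB and LUM stayed under the floor on both arrays. The part of such a difference in the members' values was not tested. In RNA from a whole culture, a change in the share of cells that express a gene and a change in the RNA per cell cannot be told apart.

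As a group the enzymes had a median ratio close to that of all genes, and 7 enzymes and 1 non-coding transcript passed 2-fold. Of the 67 members, 63 were measured, and 6 of these 63 (9.52%) were at least 2-fold higher with gefitinib, against 13.3% of all measured genes. HDAC11, EHMT2, KDM2B, KDM7A-DT, SIRT3 and EHMT1 were the 6. The 2 members (3.17%) at least 2-fold lower with gefitinib were KMT2A and HDAC8, against 6.2% of all measured genes. These shares of all genes, 13.3% higher and 6.2% lower, also stand beside the class counts below. The remaining 55 members did not pass 2-fold, although 2 of these values (HDAC4 and KMT2E-AS1) are bounds, and no member reached 3-fold, a size at which 4.78% of all genes were higher and 2.05% lower. The median log2 ratio of the members was 0.11, beside 0.12 for all genes. Counted by probe set, 13 of 130 measured member probe sets (10%) were at least 2-fold higher, against 12.1% of all measured probe sets, and 6 (4.62%) were at least 2-fold lower, against 7.26%. The split moved with the scaling of the arrays, for the members and for all genes. Scaled to GAPDH, 9 members were higher and 0 lower, against 17.9% and 4.34% of all genes. After centring on normalization controls, 7 were higher and 1 lower, against 16.6% and 4.82%. Quantile normalization gave 4 higher and 3 lower, against 10.7% and 7.26%, and lowess gave 3 higher and 4 lower, against 10.1% and 7.51%. Scaling to the hybridization spike-ins gave 1 higher and 3 lower, against 9.42% and 9.25%. The median of all genes lay between -0.07 (spike-ins) and 0.28 (GAPDH) under these scalings.

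**Figure D1:**
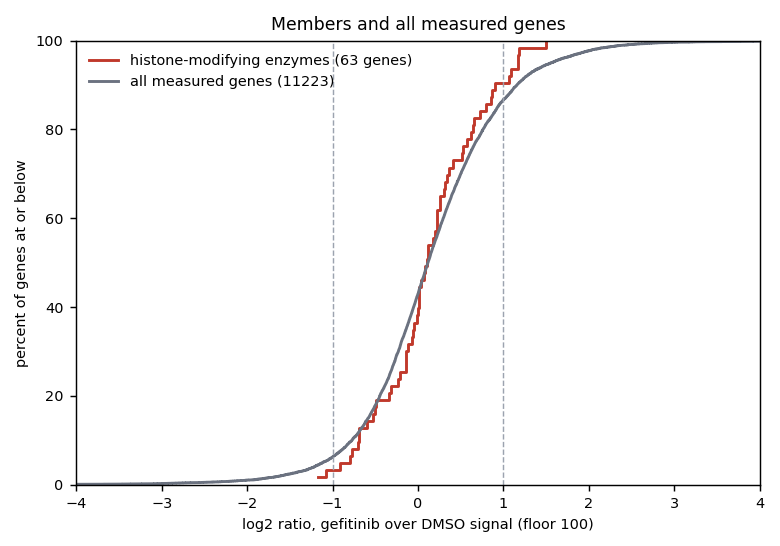
Cumulative percent of genes (vertical axis) at or below each log2 ratio (horizontal axis, gefitinib signal over DMSO signal, floor 100) for the 63 measured members and for all 11223 measured genes; dashed lines mark 2-fold. The member curve runs close to that of all genes in the middle and ends earlier on both sides, with members between 2.26-fold lower and 2.83-fold higher with gefitinib.

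The 6 genes that were higher are shown first with the stretch of DNA upstream of their start. The letters run 5′ to 3′ on the strand of the gene and do not reach past the start of a neighbour that is transcribed the other way. They were read from the RefSeq promoter table of build GRCh38.p14, which held 62 of the 67 members. SIRT7, NSD3, HDAC5, DOT1L and SETD1B are named only. Capitals mark matches, on either strand, to 3 motifs: the ETS motif CCGGAAG, the E-box CACGTG and the GC box GGGGCGGGG, whose matches can overlap each other.

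EHMT1: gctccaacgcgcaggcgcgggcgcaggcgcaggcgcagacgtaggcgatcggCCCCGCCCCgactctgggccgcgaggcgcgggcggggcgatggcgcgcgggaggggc
EHMT2: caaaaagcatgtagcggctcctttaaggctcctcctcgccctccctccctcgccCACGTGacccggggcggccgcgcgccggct
HDAC11: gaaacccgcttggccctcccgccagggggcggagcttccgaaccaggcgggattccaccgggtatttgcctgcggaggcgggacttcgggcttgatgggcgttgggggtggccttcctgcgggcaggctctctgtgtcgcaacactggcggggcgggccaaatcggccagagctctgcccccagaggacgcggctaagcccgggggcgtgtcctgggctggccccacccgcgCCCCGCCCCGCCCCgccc
KDM2B: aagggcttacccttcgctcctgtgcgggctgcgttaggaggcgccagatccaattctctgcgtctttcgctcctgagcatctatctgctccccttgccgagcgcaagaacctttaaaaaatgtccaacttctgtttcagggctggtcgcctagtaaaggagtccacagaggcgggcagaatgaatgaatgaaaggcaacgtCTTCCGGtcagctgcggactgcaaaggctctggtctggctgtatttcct
KDM7A-DT: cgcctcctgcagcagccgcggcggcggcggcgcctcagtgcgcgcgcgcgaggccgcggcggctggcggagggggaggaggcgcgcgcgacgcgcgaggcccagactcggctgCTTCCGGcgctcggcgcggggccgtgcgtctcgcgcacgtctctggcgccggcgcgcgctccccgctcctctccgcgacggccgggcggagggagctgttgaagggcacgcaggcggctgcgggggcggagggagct
SIRT3: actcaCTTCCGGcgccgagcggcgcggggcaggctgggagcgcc
The EHMT1 stretch is chr9:137618896-137619004 (plus strand) and holds 1 GC box. The EHMT2 stretch is chr6:31897699-31897782 (minus strand) and holds 1 E-box. That of HDAC11 is chr3:13480056-13480305 (plus strand), with 2 overlapping GC boxes at its end. KDM2B (chr12:121581024-121581273, minus strand, the first of 4 listed starts), KDM7A-DT (chr7:140177011-140177260, plus strand) and SIRT3 (chr11:236932-236975, minus strand) each hold 1 ETS match. All 6 stretches end at the base before the annotated start that was used. Over the 250 bases before the start, the ETS motif occurred in 16.1% of the 62 member promoters and 8.82% of all 27305 promoters, the E-box in 12.9% and 6.49%, and the GC box in 27.4% and 15.4%. Of 3 further motifs searched on both strands, AP-1 (TGACTCA) occurred in 3.23% of member promoters and 4.16% of all promoters, the FOXO motif (TGTTTAC) in 1.61% and 2.98%, and the cAMP response element (TGACGTCA) in 1.61% and 1.77%. The set of all promoters includes genes not measured here and non-coding genes, and it was not matched to the members for GC content. A match is a run of letters and not a measured binding site.

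Of the 18 demethylases, 17 were measured, 1 was at least 2-fold higher and 0 were lower, with a median log2 ratio of 0.04. KDM2B, an H3K36 demethylase that binds unmethylated CpG islands and brings a Polycomb complex to them, was the one that was higher. Its single measured probe set had a signal of 1319.9 with gefitinib and 585 with DMSO, 2.26-fold higher (log2 ratio 1.17).

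KDM5A lay on both sides of 0 and differed little at the probe set with its highest signal, 1801 with gefitinib and 1858 with DMSO (log2 ratio -0.04). A second probe set gave 934 with gefitinib and 752 with DMSO (0.31), and another gave 369 with gefitinib and 244 with DMSO (0.60). The last gave 215 with gefitinib and 90.5 with DMSO, at least 2.15-fold higher. The other 3 were thus within 2-fold, and only the probe set that was under the floor with DMSO passed it. Over 11 other settings of scaling, floor and probe set choice, the KDM5A log2 ratio ranged from -0.23 to 0.49.

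The other 3 KDM5 genes, which also demethylate H3K4, stayed within 2-fold. KDM5B had 3965 with gefitinib and 3306 with DMSO (log2 ratio 0.26), and its other 2 probe sets gave 0.21 and -0.05. KDM5C was lower at both of its probe sets, with 369 with gefitinib and 556 with DMSO at the first (-0.59) and 213 with gefitinib and 225 with DMSO at the second (-0.08). KDM5D had 1848 with gefitinib and 2622 with DMSO (-0.50). The KDM5 family therefore held no representative value past 2-fold and no shared direction.

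The KDM3 genes remove methyl groups from H3K9. KDM3B was higher at both of its probe sets, with 3472 with gefitinib and 2198 with DMSO (0.66) and 3191 with gefitinib and 1994 with DMSO (0.68), both short of 2-fold. KDM3A had 3488 with gefitinib and 3395 with DMSO (0.04). KDM6A and KDM6B, the demethylases of H3K27, had log2 ratios of -0.06 and 0.31, and KDM1A, the flavin-dependent H3K4 demethylase of the CoREST complex, had 2299 with gefitinib and 1917 with DMSO (0.26). The 4 KDM4 genes, which act on H3K9, had log2 ratios of -0.14 (KDM4C), 0.01 (KDM4B), 0.11 (KDM4D) and 0.18 (KDM4A). KDM2A (-0.14), KDM1B (0.01) and KDM7A (0.41) were also within 2-fold. KDM8 stayed under the floor on both arrays.

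**Figure D2:**
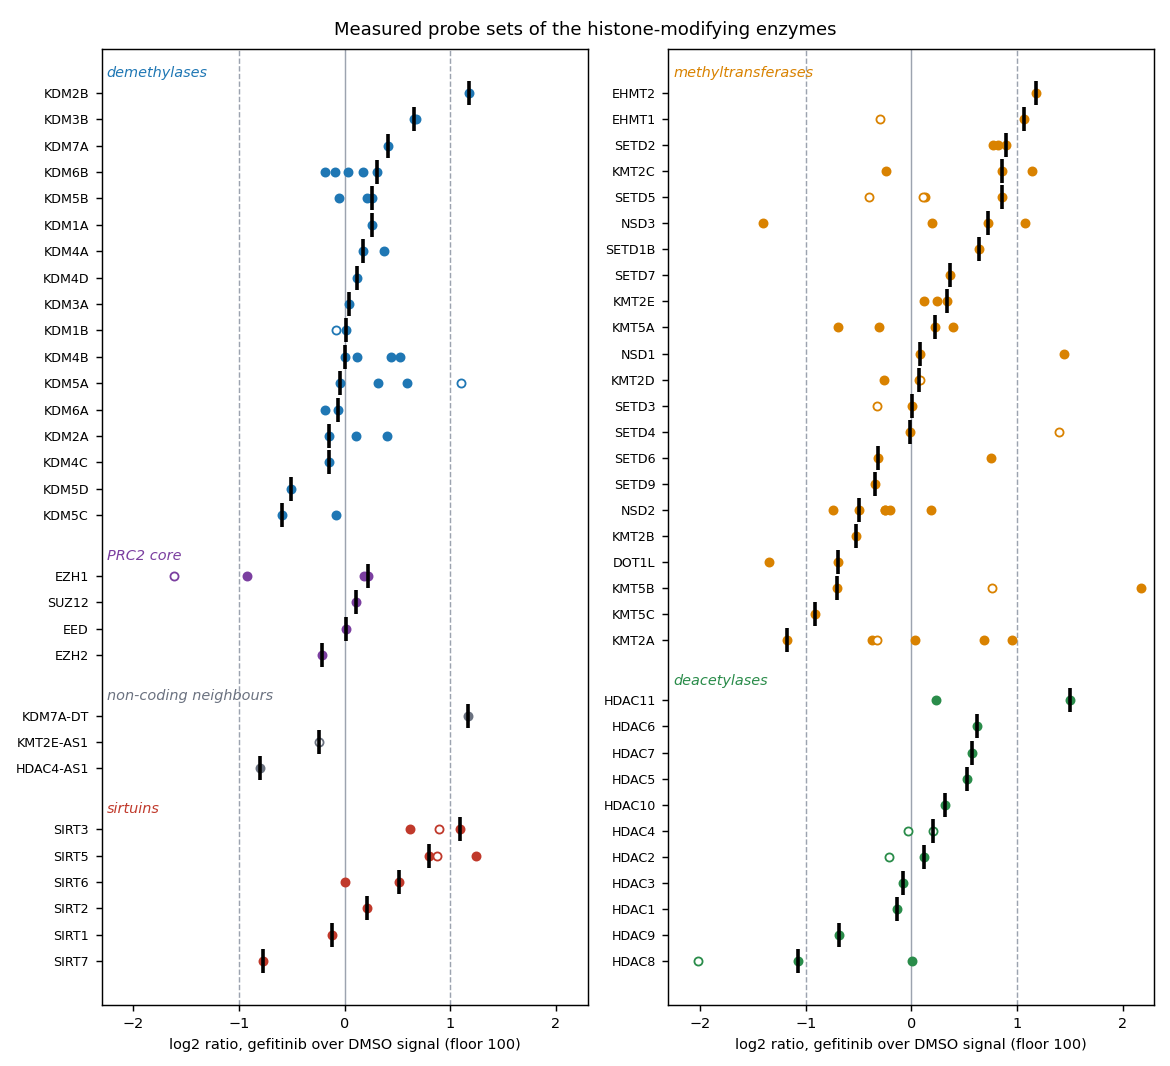
Gefitinib signal over DMSO signal as a log2 ratio (horizontal axis, floor 100) at each measured probe set of the 63 measured members, 1 row per gene, by class. Filled circles are probe sets with both signals of 100 or more, open circles are bounds, black bars mark the probe set that gave the gene its value, and dashed lines mark 2-fold; KMT5B and KMT2A have probe sets on both sides of 0.

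Of the 23 methyltransferases outside PRC2, 22 were measured, 2 were at least 2-fold higher and 1 was lower (median 0.08). EHMT1 and EHMT2, which form a complex that mono- and dimethylates H3K9, were the 2 that were higher. EHMT2 had 1097 with gefitinib and 485 with DMSO, 2.26-fold higher (log2 ratio 1.18), at the only one of its probe sets that reached the floor. EHMT1 had 2416 with gefitinib and 1155 with DMSO, 2.09-fold higher (1.06). A second EHMT1 probe set gave 51.9 with gefitinib and 123 with DMSO, at least 1.23-fold lower, so that the direction of EHMT1 rests on 1 probe set. Both partners of the complex were thus higher at their representative probe sets. The mean over probe sets put EHMT1 at 0.38.

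KMT2A, an H3K4 methyltransferase also known as MLL, was 2.26-fold lower (log2 ratio -1.18) at its representative probe set, with 286 with gefitinib and 646 with DMSO. A second probe set of KMT2A gave 586 with gefitinib and 304 with DMSO (0.95), and another gave 352 with gefitinib and 218 with DMSO (0.69). The remaining 3 gave -0.37, 0.03 and, as a bound, -0.32. KMT2A therefore had no single direction, and the mean over its 6 measured probe sets was -0.03.

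The measured H3K4 methyltransferases related to KMT2A stayed within 2-fold at their representative probe sets. KMT2C, which with KMT2D monomethylates H3K4 at enhancers, had 525 with gefitinib and 289 with DMSO (0.86), while its other 2 probe sets gave 1.14 and -0.24. KMT2D had 568 with gefitinib and 541 with DMSO (0.07). KMT2B had 324 with gefitinib and 466 with DMSO (-0.53). The more distant KMT2E (0.33), which is not known as an active enzyme, and SETD1B (0.64) were also within 2-fold, and SETD1A stayed under the floor on both arrays.

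Of the H3K36 methyltransferases, SETD2, NSD1 and NSD3 had log2 ratios above 0 and NSD2 below 0, all within 2-fold at their representative probe sets. SETD2, which places H3K36 trimethylation, was the member just under the threshold on the higher side. Its 3 probe sets gave 1367 with gefitinib and 734 with DMSO (0.90), 503 with gefitinib and 293.5 with DMSO (0.78), and 182 with gefitinib and 103 with DMSO (0.82). All 3 probe sets of SETD2 were thus 1.71-fold to 1.86-fold higher, and the gene passed 2-fold under 2 of 11 other settings. NSD3 had 1105 with gefitinib and 668 with DMSO (0.73), but its probe sets ran from -1.40 to 1.08. NSD1 had 269 with gefitinib and 254 with DMSO at its representative probe set (0.08), and 367 with gefitinib and 134.5 with DMSO at the other, 2.73-fold higher. NSD2 had 1813 with gefitinib and 2554 with DMSO (-0.49), and its 6 probe sets lay between -0.74 and 0.19.

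Among the H4K20 methyltransferases, KMT5B had the widest gap between probe sets of any member. The enzyme, which adds further methyl groups to monomethylated H4K20, had signals of 1689 with gefitinib and 2744 with DMSO (-0.70) at its representative probe set. A second KMT5B probe set gave 852 with gefitinib and 189 with DMSO, 4.51-fold higher, and the last gave 170.2 with gefitinib and 51.3 with DMSO, at least 1.70-fold higher. No direction can be given for KMT5B from these values. KMT5C, with the same activity, had 111 with gefitinib and 209 with DMSO, 1.89-fold lower, just short of the threshold and close to the floor. KMT5A, which adds the first methyl group, had 608 with gefitinib and 519 with DMSO (0.23), with probe sets between -0.69 and 0.39.

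DOT1L, the H3K79 methyltransferase, was lower at both of its measured probe sets. The first gave 372 with gefitinib and 602 with DMSO (-0.70), and the second gave 141 with gefitinib and 358 with DMSO, 2.54-fold lower. Among the remaining SET-domain genes, SETD5 had 3085 with gefitinib and 1700.5 with DMSO (0.86), with its other probe sets between -0.40 and 0.13. SETD7, which methylates H3K4 and other proteins, had 2931 with gefitinib and 2270.2 with DMSO (0.37). SETD3, which methylates a histidine of actin, had 2219.5 with gefitinib and 2214 with DMSO (0.00). SETD6 (-0.31) had a second probe set of the opposite sign (0.75). SETD4 (-0.01) had a second probe set at 263 with gefitinib and 48.3 with DMSO, at least 2.63-fold higher. SETD9 had a log2 ratio of -0.34.

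The 4 core genes of PRC2, the complex that methylates H3K27, stayed within 2-fold at their representative probe sets, with a median log2 ratio of 0.06. EZH2, its main catalytic subunit in dividing cells, had 299.8 with gefitinib and 348 with DMSO (-0.22). EED had 3044 with gefitinib and 3022 with DMSO (0.01), and SUZ12 had 2504 with gefitinib and 2323 with DMSO (0.11). EZH1, the alternative catalytic subunit, had 908 with gefitinib and 781 with DMSO (0.22) and 572 with gefitinib and 505 with DMSO (0.18) at a pair of probe sets. The other 2 EZH1 probe sets were lower, with 124 with gefitinib and 234 with DMSO (-0.92) and with 92.8 with gefitinib and 305.5 with DMSO, at least 3.06-fold lower. EED and SUZ12, measured by 1 probe set each, differed by less than the spread between probe sets of 1 gene.

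**Figure D3:**
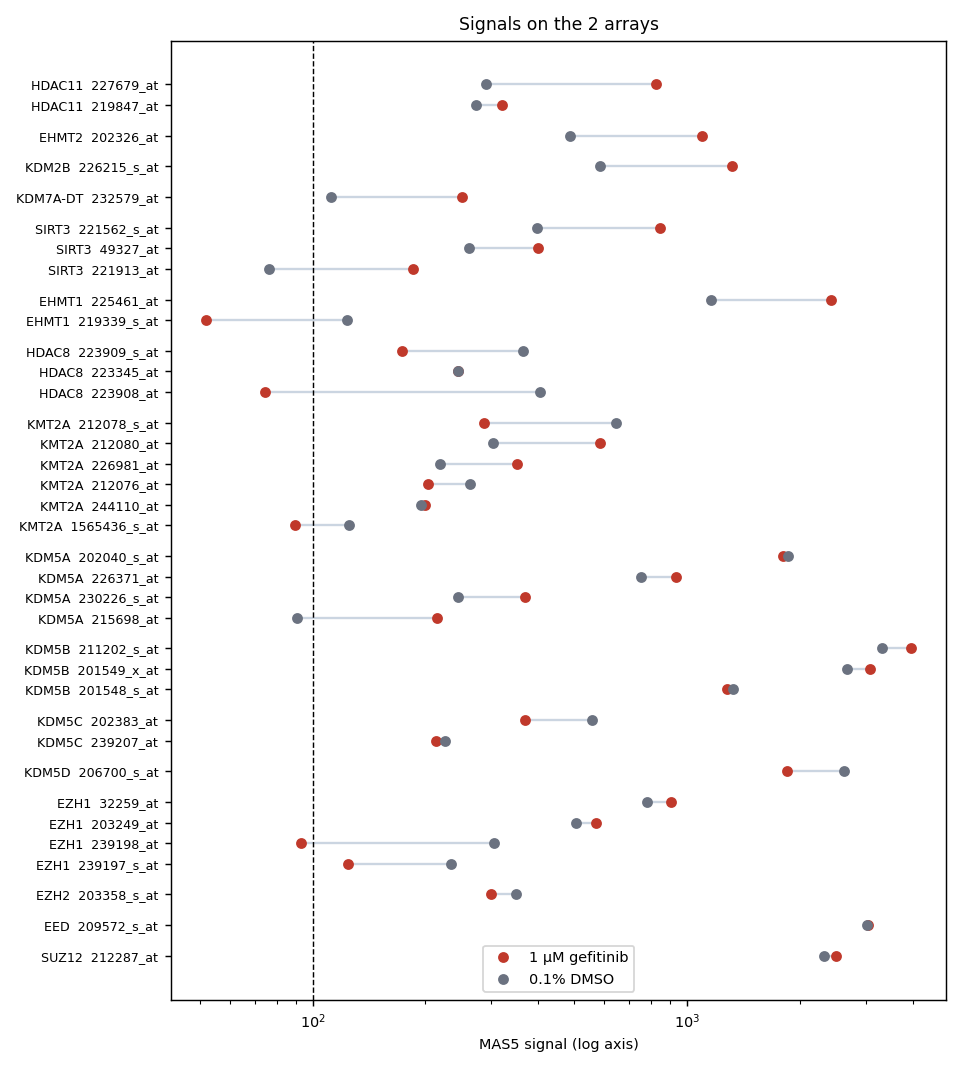
MAS5 signals (log axis) with 1 µM gefitinib and with 0.1% DMSO, joined by a line, at every measured probe set of the 8 members past 2-fold, the KDM5 genes and the PRC2 core. The dashed line is the floor of 100; the signals of SIRT3 are higher with gefitinib at all 3 probe sets, whereas those of KMT2A cross.

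All 11 zinc-dependent deacetylases were measured, with 1 at least 2-fold higher, 1 lower and a median log2 ratio of 0.20. HDAC11, the only class IV enzyme, had the highest ratio of any member. It had 823 with gefitinib and 291 with DMSO, 2.83-fold higher, and a second probe set gave 319 with gefitinib and 272 with DMSO (0.23). HDAC11 was thus higher at both probe sets but past 2-fold at 1, and the mean over the pair was 0.87.

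HDAC8, a class I enzyme, was lower at 2 of its 3 measured probe sets. Its representative probe set gave 173 with gefitinib and 364 with DMSO, 2.11-fold lower (-1.07), and another gave 74.7 with gefitinib and 405 with DMSO, at least 4.05-fold lower. The remaining one gave 245 with gefitinib and 244 with DMSO (0.00). The other class I enzymes, HDAC1, HDAC2 and HDAC3, which work in the NuRD, SIN3, CoREST and NCoR complexes, hardly differed. HDAC1 had 8140.3 with gefitinib and 8939.7 with DMSO (-0.14), HDAC2 had 2977 with gefitinib and 2744.5 with DMSO (0.12), and HDAC3 had 2083 with gefitinib and 2195 with DMSO (-0.08).

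Of the class II enzymes, HDAC5, HDAC6, HDAC7, HDAC9 and HDAC10 differed by less than 2-fold. HDAC6, which deacetylates tubulin in the cytoplasm, had 2299.9 with gefitinib and 1498 with DMSO (0.62). HDAC5 (0.53), HDAC7 (0.57) and HDAC10 (0.32) were also higher, and HDAC9 had 1219 with gefitinib and 1964 with DMSO (-0.69). HDAC4 had 115 with gefitinib and 56.2 with DMSO at its representative probe set, at least 1.15-fold higher, and 47.5 with gefitinib and 102 with DMSO at a second probe set, at least 1.02-fold lower. Both HDAC4 values are bounds and point in opposite directions. With a floor of 50, HDAC4 was among the members at least 2-fold higher at its representative probe set. The second probe set, with 47.5 with gefitinib and 102 with DMSO, was then at least 2-fold lower, so that floor gave HDAC4 no direction.

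Of the 7 sirtuins, 6 were measured, 1 was at least 2-fold higher and 0 were lower, with a median log2 ratio of 0.37. Both measured sirtuins of the mitochondria were higher at all 3 of their measured probe sets. The last probe set of each was under the floor with DMSO, so its ratio could only lie above 0. SIRT3, a mitochondrial deacetylase, gave 848 with gefitinib and 397 with DMSO, 2.13-fold higher (1.09), then 400.4 with gefitinib and 261 with DMSO (0.62), then 185.5 with gefitinib and 76.5 with DMSO, at least 1.85-fold higher. SIRT5, which removes succinyl and related groups, gave 1175 with gefitinib and 676 with DMSO (0.80), then 288 with gefitinib and 121 with DMSO (1.25), then 184 with gefitinib and 64.1 with DMSO, at least 1.84-fold higher. SIRT4, the other mitochondrial sirtuin, stayed under the floor on both arrays.

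The sirtuins of the nucleus lay on both sides of 0. SIRT7, found in the nucleolus, had 1716 with gefitinib and 2937 with DMSO, 1.71-fold lower (-0.78). SIRT1 had 823 with gefitinib and 891 with DMSO (-0.11), and SIRT6 had 700.3 with gefitinib and 490.3 with DMSO (0.51), with a second probe set at 0.01. SIRT2, mainly of the cytoplasm, had 495 with gefitinib and 426 with DMSO (0.22).

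Of the 4 non-coding transcripts, 3 were measured, 1 was at least 2-fold higher and 0 were lower, with a median log2 ratio of -0.24. KDM7A-DT, transcribed away from KDM7A, had 250.5 with gefitinib and 112 with DMSO, 2.24-fold higher (1.17), while KDM7A itself had 217.5 with gefitinib and 163 with DMSO, 1.33-fold higher (0.41). The DMSO signal of KDM7A-DT lay close to the floor, and with a floor of 200 its log2 ratio was 0.32. HDAC4-AS1 had 112 with gefitinib and 194 with DMSO (-0.80), and KMT2E-AS1 was at least 1.18-fold lower. HDAC2-AS2 stayed under the floor. Without the non-coding transcripts, 5 of 60 measured members were at least 2-fold higher and 2 were lower, with a median of 0.11.

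Several calls above rest on 1 probe set of a gene that has others. Among the 34 members measured by more than 1 probe set, 13 (38.2%) had all log2 ratios on 1 side of 0, against 60.3% of the 5432 genes on the array with more than 1. These shares were not matched for the number of probe sets per gene. The sign of a bound is set by the array that reached the floor, and some splits rest on values close to 0, as in SETD4 (-0.01) and KDM5A (-0.04). Among these 13, 10 were higher at every measured probe set (HDAC11, KDM3B, KDM4A, KDM4B, KMT2E, NSD1, SETD2, SIRT3, SIRT5 and SIRT6) and 3 were lower (DOT1L, KDM5C and KDM6A). In 12 members the probe sets differed in sign and by over 1 in log2 ratio, and EHMT1, KMT2A and HDAC8, 3 of the members past 2-fold, were among them. The SD between probe sets of 1 gene was 0.61 for the members and 0.58 for all genes. The other 29 measured members, EHMT2, KDM2B and KDM7A-DT among them, had 1 measured probe set.

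**Figure D4:**
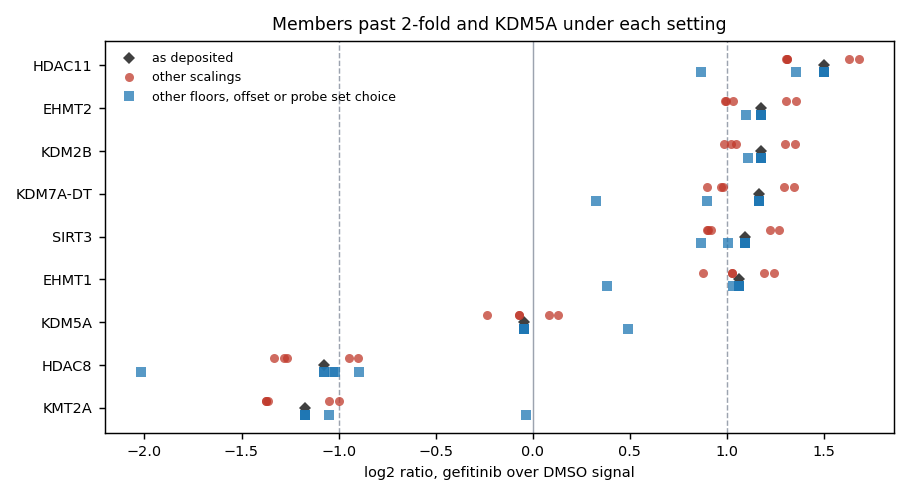
Gefitinib signal over DMSO signal as a log2 ratio (horizontal axis) of the 8 members past 2-fold and of KDM5A under each setting; diamonds are the values as deposited, circles other scalings, squares other floors, offset or probe set choices, and dashed lines mark 2-fold. HDAC11 stays past 2-fold under all 5 other scalings, and KMT2A lies near 0 with the mean over probe sets.

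The enzymes work in complexes, and lists of their partners were read on the same arrays. CoREST and NCoR subunits, the corepressors that carry KDM1A and HDAC3, had 3 of 11 measured genes at least 2-fold higher, beside 13.3% of all genes, 0 lower and a median log2 ratio of 0.59. CORO2A had the highest ratio, 4.09-fold higher, followed by RCOR3 (3.50-fold) and TBL1X (2.68-fold), but the 3 probe sets of RCOR3 ran from -1.48 to 1.81. The 4 probe sets of TBL1X ran from 0.01 to 1.64. Of these 11 genes, 10 had a log2 ratio above 0, beside 57.0% of all measured genes. NuRD and SIN3 subunits, the partners of HDAC1 and HDAC2, had 0 of 21 past 2-fold at their representative probe sets and a median of 0.01. Other probe sets of several of these genes passed 2-fold, with log2 ratios from -2.05 (ING1) to 1.68 (SIN3A).

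Among the 6 measured accessory subunits of PRC2, which steer the complex to its targets, 2 were at least 2-fold lower and 0 higher (median -0.23). Of all measured genes, 6.2% were at least 2-fold lower and 13.3% higher. PHF19 had 406 with gefitinib and 1313 with DMSO, 3.24-fold lower, and was lower at all 3 of its probe sets. PHF1 was 2.02-fold lower. COMPASS subunits, the partners of the KMT2 enzymes, had 3 of 14 at least 2-fold higher, 0 lower and a median of -0.11. WDR5, a core subunit, had 1075 with gefitinib and 339 with DMSO, 3.17-fold higher, with a second probe set at -0.63. NCOA6 (2.16-fold) and PAXIP1 (2.05-fold) were the other 2, and a second probe set of NCOA6 gave -0.98.

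Acetyltransferases, which oppose the deacetylases, had 2 of 12 at least 2-fold higher and 1 lower (median 0.25). The shares of all measured genes were 13.3% higher and 6.2% lower. NCOA1, a coactivator of nuclear receptors, was 2.75-fold higher with all 4 probe sets at or above 1.01. CREBBP was 2.40-fold higher, although its 3 probe sets ran from 0.01 to 1.27. KAT2A was 2.14-fold lower. Methyltransferases named outside the rule, mainly of the PRMT and SMYD families, had 2 of 18 at least 2-fold higher and 0 lower (median -0.06). PRMT6, an arginine methyltransferase, had 399.8 with gefitinib and 154 with DMSO (2.60-fold), and PRDM2 had 1347 with gefitinib and 539 with DMSO (2.50-fold), although the 3 probe sets of PRDM2 ran from -0.26 to 1.32. Of 11 other proteins with a JmjC domain, RIOX2 was 2.03-fold higher, with its 4 probe sets between 0.18 and 1.02. JMJD6 had 592 with gefitinib and 3031 with DMSO, 5.12-fold lower, and was lower at both probe sets.

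Cell proliferation genes, given because some histone enzymes are known to follow the cell cycle, had 6 of 20 at least 2-fold lower with gefitinib. None was at least 2-fold higher, and their median was -0.85. Of all measured genes, 6.2% were at least 2-fold lower and 13.3% higher. EZH2 (-0.22), NSD2 (-0.49) and KMT5A (0.23) were within 2-fold on the same arrays. The part of proliferation in the members' values was not tested.

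**Figure D5:**
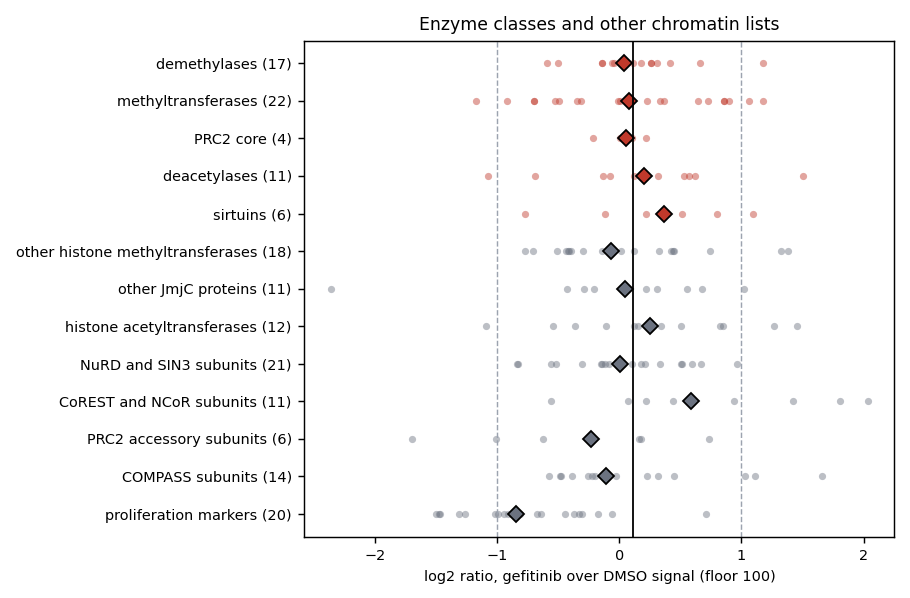
Gefitinib signal over DMSO signal as a log2 ratio (horizontal axis, floor 100) of each measured gene (circles) and the median (diamonds) for the 5 enzyme classes in red and the other lists in grey, with the number of measured genes in brackets. The solid line is the median of all measured genes (0.12) and dashed lines mark 2-fold; the class medians lie between 0.04 for demethylases and 0.37 for sirtuins, against 0.59 for CoREST and NCoR subunits and -0.85 for proliferation markers.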

How the data were processed

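Per the labels and the study's methods, total RNA of H322c cells was labelled with biotin and hybridised to Affymetrix U133 Plus 2.0 arrays, 1 per condition. The authors deposited signal intensities on a linear scale for 54675 probe sets. The submitters' processing notes name MAS5, with a version not given in the sources used here. The 2% trimmed mean was 500 on each array, so a shift shared by most transcripts would be hidden. The platform annotation paired 41097 probe sets with 1 gene and 1801 with several, 2 of which held a member and were left out. A further 11777 were not listed. Probe sets with the suffix _s_at or _x_at can read more than 1 transcript. For 41043 of the probe sets with 1 gene, the symbol was taken from the RefSeq gene list through the gene identifier, whether or not it changed.

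From the deposited intensities, signals under 100 were set to 100, and each gefitinib value was divided by its DMSO value and put on the log2 scale. Measured were 20172 probe sets and 11223 genes. With 1 array each, precision is limited by the number of arrays and no p-values were calculated. All measured members are named, with both signals for the KDM5 and PRC2 core genes, every member past 2-fold, the 10 highest and 10 lowest ratios and the 3 highest signals of each class. Of other lists, no more than 4 genes were named, those farthest from 0 in log2 ratio, for NuRD and SIN3 subunits at any measured probe set. The members, lists and alternatives were chosen with earlier results of these data known. That the naming rule also takes in non-coding transcripts was seen later, and the counts without them were added then. Alternatives were 5 other scalings (quantile, centring on 100 normalization controls, GAPDH, spike-ins, lowess with span 0.3), floors of 50 or 200, log2 of the signal plus 50, other probe set choices and thresholds of 1.5-fold or 3-fold. The steps were tested on simulated data. Tables were handled with pandas 2.3.3 and numpy 2.4.6 in Python 3.11.15, the lowess fit came from statsmodels 0.14.6, trimmed means from scipy 1.17.1, and plots were drawn with matplotlib 3.10.9. The study's other experiments were not analysed here.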

Additional observations from a re-analysis of the deposited data

How the results depend on the processing

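No paired analysis was possible because there was 1 array per condition, and for the same reason no array could be left out. As deposited, 6 members were at least 2-fold higher with gefitinib. That count was 1 scaled to the spike-ins, 3 after lowess, 3 with the mean over probe sets, 14 at 1.5-fold and 0 at 3-fold. The 2 lower members became 1 after centring on normalization controls, 0 scaled to GAPDH, 4 after lowess, 1 with log2 of the signal plus 50, 9 at 1.5-fold and 0 at 3-fold. At 1.5-fold, 26.4% of all genes were higher and 14.9% lower. The median of all genes, 0.12 as deposited, was 0.06 after quantile normalization or lowess, 0.24 after centring on normalization controls, 0.28 with GAPDH and -0.07 with the spike-ins. Relative to it, the medians of the members and of each class moved by less than the spread between probe sets (SD 0.58, reduced by the number of genes). The KDM5A log2 ratio, from which the median of all genes was not subtracted, moved by less than that SD. Normalization controls, GAPDH and spike-ins rescale 1 array by a constant, so subtracting the median of all genes removes most of their effect by construction. With the mean over probe sets, some class medians relative to all genes changed sign. Deacetylases went from 0.08 to -0.01, methyltransferases from -0.04 to 0.09 and demethylases from -0.08 to 0.02, while sirtuins and the PRC2 core kept their sign.

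Of the 8 members past 2-fold, HDAC11 stayed past it under 10 of 11 other settings, KDM2B under 10, EHMT1, EHMT2 and KMT2A under 9, HDAC8 under 8, SIRT3 under 7 and KDM7A-DT under 6. Not every setting could move every gene. EHMT2 and KDM2B each had 1 measured probe set with both signals above 200, so other floors and probe set choices left their values unchanged. The tallies are therefore no measure of how reliable a call is. With the mean over probe sets EHMT1 was 0.38, KMT2A -0.03, HDAC11 0.87, KMT5B 0.75, SETD5 0.17 and EZH1 -0.53. With a floor of 200, KMT5C was -0.06. The cause of the disagreement between probe sets was not tested.

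Counts past 2-fold in either direction in the other lists moved as follows. Of all genes, 13.3% were higher and 6.2% lower as deposited, and 9.42% and 9.25% with spike-ins. At 1.5-fold the shares were 26.4% and 14.9%, and at 3-fold 4.78% and 2.05%. Under the remaining settings they lay between 10.1% and 17.9% higher and between 4.34% and 7.51% lower. Other JmjC proteins (2 as deposited) had 1 with quantile normalization, spike-ins, lowess, log2 of the signal plus 50, the mean over probe sets and 3-fold. NuRD and SIN3 subunits (0) had 1 with normalization controls, GAPDH and without _x_at probe sets, 2 with spike-ins and the mean over probe sets, and 5 at 1.5-fold. PRC2 accessory subunits (2) had 1 with normalization controls, GAPDH, log2 of the signal plus 50 and 3-fold, and 4 at 1.5-fold. COMPASS subunits (3) had 1 with spike-ins, the mean over probe sets and 3-fold. Other methyltransferases (2) had 1 with a floor of 200 and the mean over probe sets, 5 at 1.5-fold and 0 at 3-fold. Acetyltransferases (3) had 5 at 1.5-fold and 0 at 3-fold, and CoREST and NCoR subunits (3) had 6 at 1.5-fold. Proliferation markers (6) had 11 with spike-ins, 14 at 1.5-fold and 0 at 3-fold.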

Other observations

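Several members start close to a neighbour that is transcribed the other way, and the ratio of the neighbour was read on the same arrays. Of 11 such pairs with both genes measured and starts within 1000 bases, 5 had both log2 ratios of 1 sign. CCDC77, whose annotated start lies 27 bases from that of KDM5A, had 143 with gefitinib and 309 with DMSO, 2.17-fold lower, beside a KDM5A log2 ratio of -0.04. NFKBIB, 48 bases from SIRT2, had 255 with gefitinib and 445 with DMSO (-0.80), beside 0.22 for SIRT2. ARRDC1-AS1, 110 bases from EHMT1, had 82.5 with gefitinib and 147 with DMSO, at least 1.47-fold lower, while EHMT1 was 2.09-fold higher. RELL2, 148 bases from HDAC3, had 183 with gefitinib and 61.0 with DMSO, at least 1.83-fold higher, beside -0.08 for HDAC3. The pairs KDM4D and CWC15 (153 bases apart, CWC15 at 0.05) and KDM1B and TPMT (253 bases apart, TPMT at 0.33) were within 2-fold on both sides. So were SETD3 and CCNK (550 bases apart, 0.00 for SETD3 and 0.15 for CCNK) and SETD5 and THUMPD3-AS1 (992 bases apart, 0.86 for SETD5 and -0.39 for THUMPD3-AS1). The other 3 pairs join KDM7A, HDAC4 and KMT2E to the non-coding transcripts KDM7A-DT (278 bases; 0.41 for KDM7A and 1.17 for KDM7A-DT), HDAC4-AS1 (71 bases; 0.20, a bound, for HDAC4 and -0.80 for HDAC4-AS1) and KMT2E-AS1 (64 bases; 0.33 for KMT2E and -0.24, a bound, for KMT2E-AS1). These pairs are descriptions of 2 arrays, and the difference between partners was not tested.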
